A study of Homo sapiens with 8 samples.

Results

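The genes below, 10 of the 20296 that the probes of the array name, were followed in MCF10A cells after DNA damage: FOXM1, the MYB-like genes MYBL1 and MYBL2, and 7 genes for subunits of the DREAM complex, LIN9, LIN37, LIN52, LIN54, RBL2, TFDP1 and TFDP2. They are given by name, as genes of these complexes, and each was matched to its probes through the transcript accession or symbol, which gave 13 probes for the 10 genes. The probe with the highest mean level over the arrays stood for its gene, and the second probes of MYBL1, LIN9 and TFDP1 are given beside it. MCF10A is a human mammary epithelial cell line that does not form tumours, and it was compared with a derivative of genotype p53-/-. How the derivative was made, and whether it is 1 clone, is not given in the sources used here. Both lines were harvested without treatment (0 h) or at 12, 24 and 48 h after a 2 h exposure to adriamycin (ADR, also named doxorubicin), which breaks DNA. The labels give 0.5 µg/ml, and the methods text of the study gives another dose. Each of the 8 conditions had 1 array of total RNA, so no single value below has a replicate error.

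FOXM1 is a forkhead transcription factor that switches on genes of the G2 phase and mitosis. LIN9, LIN37, LIN52 and LIN54 form, with RBBP4, the MuvB core, and LIN54 is the subunit that reads the cell cycle homology region (CHR), a short DNA element in many mitotic promoters. In resting cells, MuvB together with the pocket protein p130 (the product of RBL2), E2F4 and a DP protein (the products of TFDP1 and TFDP2) makes up DREAM, which holds cell cycle genes silent. In cycling cells MuvB leaves p130 and joins B-MYB (the product of MYBL2) and later FOXM1, and then activates late cell cycle genes. After DNA damage, p53 raises p21 (CDKN1A), an inhibitor of the kinases that keep p130 phosphorylated and out of DREAM.

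RefSeq promoter windows of build GRCh38.p14, from 250 bases before to 50 bases after the annotated start, matched 8 of the 10 genes; those of FOXM1 and MYBL1 were not used here. The 250 upstream bases of 4 genes are shown, because these 4 were later among the genes past the test. Capitals mark an E2F word (the letters TTCCCGC, the letters TTGGCGC, the letters TTCGCGC or the letters TTGCCGC, on either strand) in LIN9, LIN52 and TFDP1, and a forkhead word (TAAACA, on either strand) in RBL2.
LIN9, chr1:226309504-226309753, minus strand: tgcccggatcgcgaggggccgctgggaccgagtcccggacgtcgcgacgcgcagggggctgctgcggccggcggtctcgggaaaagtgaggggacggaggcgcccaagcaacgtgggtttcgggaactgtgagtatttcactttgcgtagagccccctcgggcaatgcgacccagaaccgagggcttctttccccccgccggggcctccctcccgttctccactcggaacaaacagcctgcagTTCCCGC
LIN52, chr14:74084706-74084955, plus strand: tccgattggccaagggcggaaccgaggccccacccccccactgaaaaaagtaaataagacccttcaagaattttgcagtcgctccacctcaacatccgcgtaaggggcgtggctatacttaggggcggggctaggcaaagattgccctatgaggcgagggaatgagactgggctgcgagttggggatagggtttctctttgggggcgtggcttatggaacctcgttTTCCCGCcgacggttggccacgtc
TFDP1, chr13:113584503-113584752, plus strand: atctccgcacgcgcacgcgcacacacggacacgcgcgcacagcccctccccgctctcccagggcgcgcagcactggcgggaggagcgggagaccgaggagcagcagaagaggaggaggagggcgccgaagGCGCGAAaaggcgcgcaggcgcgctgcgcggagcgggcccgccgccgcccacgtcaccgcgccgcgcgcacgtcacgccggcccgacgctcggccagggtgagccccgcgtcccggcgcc
RBL2, chr16:53434221-53434470, plus strand: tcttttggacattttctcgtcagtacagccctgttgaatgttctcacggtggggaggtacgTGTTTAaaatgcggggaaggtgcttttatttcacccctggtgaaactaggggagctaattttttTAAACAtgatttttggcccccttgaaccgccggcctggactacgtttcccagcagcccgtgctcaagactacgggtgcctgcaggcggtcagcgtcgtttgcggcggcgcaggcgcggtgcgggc

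The E2F word of LIN9 lay 7 bases before the start, that of LIN52 24 bases before it, and that of TFDP1 120 bases before it. An E2F word was present in 3 of the 8 windows and in 13.1% of 27305 RefSeq windows of the same length. RBL2 held forkhead words 189 and 125 bases before its start. Forkhead words were present in 2 of the 8 windows, those of RBL2 and TFDP2, and in 12.4% of all windows. The CHR letters (TTTGAA or TTCGAA, both strands) were found in the windows of LIN54 and RBL2 and in 16.6% of all windows. The NF-Y box CCAAT was found in LIN37, LIN52 and TFDP2, against 35.7% of all windows, and the MYB words (the letters TAACGG, the letters TAACTG, the letters CAACGG or the letters CAACTG, both strands) in 0 of the 8, against 25.9%. MYBL2 held none of these letters in its window. These matches describe the letters of the windows only.

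**Figure D1:**
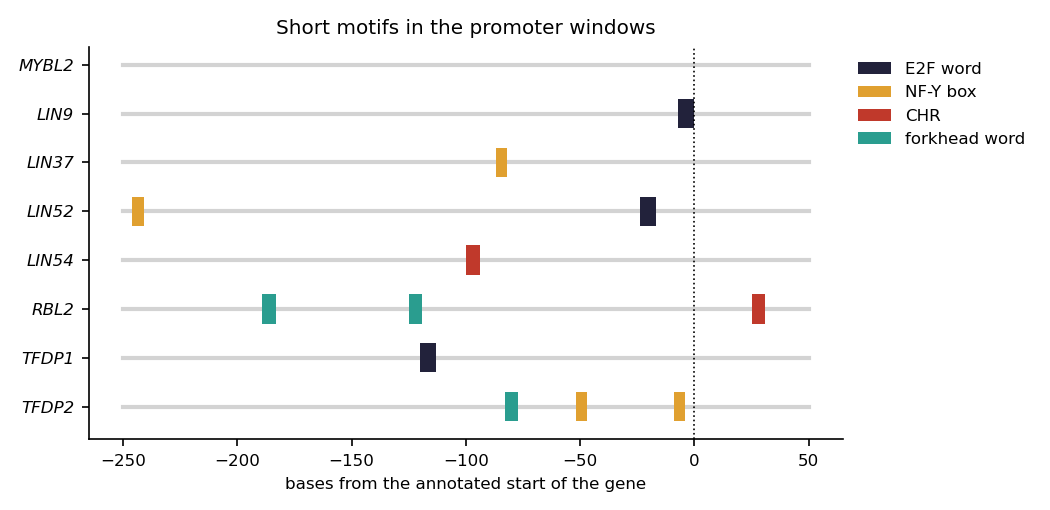
Short motifs in the 8 promoter windows. The x axis gives bases from the annotated start of the gene, grey lines are the windows, and coloured blocks are matches on either strand. E2F words lie within 120 bases of the start in LIN9, LIN52 and TFDP1, and both forkhead words of RBL2 lie upstream of its start.

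Some array facts touch every value. The level used is the log2 processed signal of a probe relative to the 75th percentile found on its array. That percentile lay between 661 and 818 on the 3 treated p53+/+ arrays and between 1118 and 1199 on the 3 treated p53-/- arrays, so the scaling raised p53+/+ values relative to p53-/- values after ADR. Over all 28947 probes tested, the median difference between treated genotypes was 0.13, -0.02 and 0.18 at 12, 24 and 48 h with this scaling and -0.32, -0.50 and -0.68 without any. MDM2, a p53 target, read -2.04 to -1.33 on the 4 p53-/- arrays, -1.66 on the array labelled p53+/+ 0 h and 1.29 to 1.76 on the treated p53+/+ arrays. CDKN1A read -1.14 on the array labelled p53+/+ 0 h against 2.54 to 2.70 on the treated p53+/+ arrays. In p53-/- cells CDKN1A read -2.97 at 0 h and -0.96, -0.64 and -0.48 at 12, 24 and 48 h. For this gene the array labelled p53+/+ 0 h thus lay above the p53-/- 0 h array and below the treated p53-/- arrays. CDH1 and DCN, given below, resembled the p53-/- arrays there, as MDM2 did. From MDM2, CDH1 and DCN, but not from CDKN1A, the labelled genotype of that array carries a doubt. The comparison of treated arrays, which needs no 0 h array, is therefore given first. On the p53+/+ 48 h array 0 of 10 spike-in control probes were well above background, against 6 of 10 on each of the other arrays, so results are also given without it.

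The cell type was checked with marker lists. Of 10 markers of basal-like mammary epithelium, 9 or 10 were well above background on each array, and TP63 was so on 3 of 8. The summed level of this list, in units of the 75th percentile, was 397 to 524 on treated p53+/+ arrays and 162 to 217 on treated p53-/- arrays. CDH1 (E-cadherin, which joins epithelial cells) read 1.42 to 2.10 on treated p53+/+ arrays and -3.55 to -0.94 on the 4 p53-/- arrays and the array labelled p53+/+ 0 h. The 4 fibroblast markers summed to 4.31 to 5.22 on treated p53+/+ and 52.0 to 67.1 on treated p53-/- arrays, nearly all from DCN (decorin). DCN read 5.70 to 6.07 on the 4 p53-/- arrays, 5.75 on the array labelled p53+/+ 0 h and 2.09 to 2.37 on the treated p53+/+ arrays. COL1A1, far dimmer, was well above background on the 4 p53-/- arrays and the array labelled p53+/+ 0 h, but on no treated p53+/+ array. PDGFRB was so on 3 arrays, all p53-/-, and COL3A1 was not well above background on any array. The sums were 0.69 to 0.99 and 0.24 to 0.44 for the 3 luminal markers, with PGR not well above background on any of the 8 arrays, 0.16 to 0.21 and 0.33 to 0.47 for the 3 endothelial markers, and 1.84 to 3.33 and 4.04 to 6.12 for the 4 leukocyte markers. These markers separate the treated genotypes as the genes below do, and their part in the results was not tested. In such bulk RNA, fewer cycling cells and less of a transcript per cell cannot be told apart.

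After ADR, MYBL1, LIN9, LIN52 and TFDP1 were lower and RBL2 was higher in p53+/+ than in p53-/- cells past the test, while FOXM1, MYBL2, LIN54, LIN37 and TFDP2 missed the threshold. By size alone, FOXM1, MYBL1 and MYBL2 were at least 2-fold lower at each of the 3 times. In the limma fit of the 6 treated arrays, where the 3 times of a genotype stand in for replicates, 4 of 10 genes were called lower and 1 of 10 higher at an adjusted p under 0.05. Over all 28947 probes, 7.40% were called lower and 10.6% higher in p53+/+ cells, 18.0% in either direction. The treated values did not overlap between genotypes for 7 genes that were lower and 2 that were higher (RBL2 and TFDP2), against 16.4% and 25.1% of all probes (41.4% in either direction). At least 2-fold lower at all 3 times were 3 of 10, against 4.58% of all probes, and at least 2-fold higher were 0 of 10, against 5.71%. Taking the times singly, 5, 4 and 5 of 10 were at least 2-fold lower at 12, 24 and 48 h (8.30%, 13.0% and 13.5% of all probes), and 0, 1 and 0 were at least 2-fold higher (12.3%, 11.9% and 16.3%), the 1 being RBL2. Without the p53+/+ 48 h array, an alternative chosen after the values were seen, 5 of 10 were lower (FOXM1, MYBL1, MYBL2, LIN9 and LIN52; 6.94% of all probes) and RBL2 was higher (8.18%), while TFDP1 missed the threshold (adjusted p = 0.06005 from limma). Without both 48 h arrays FOXM1, MYBL1, MYBL2 and LIN52 were lower (4 of 10; 3.91% of all probes) and 0 were higher (4.97%). Without the 12 h or without the 24 h arrays 0 of 10 passed, against 9.22% and 1.01% of all probes in either direction. At an unadjusted p under 0.05 in limma were 6 and 7 of 10, and 8351 and 5682 of the 28947 probes. An exact permutation test of 3 against 3 arrays cannot go below a two-sided p of 0.1.

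**Figure D2:**
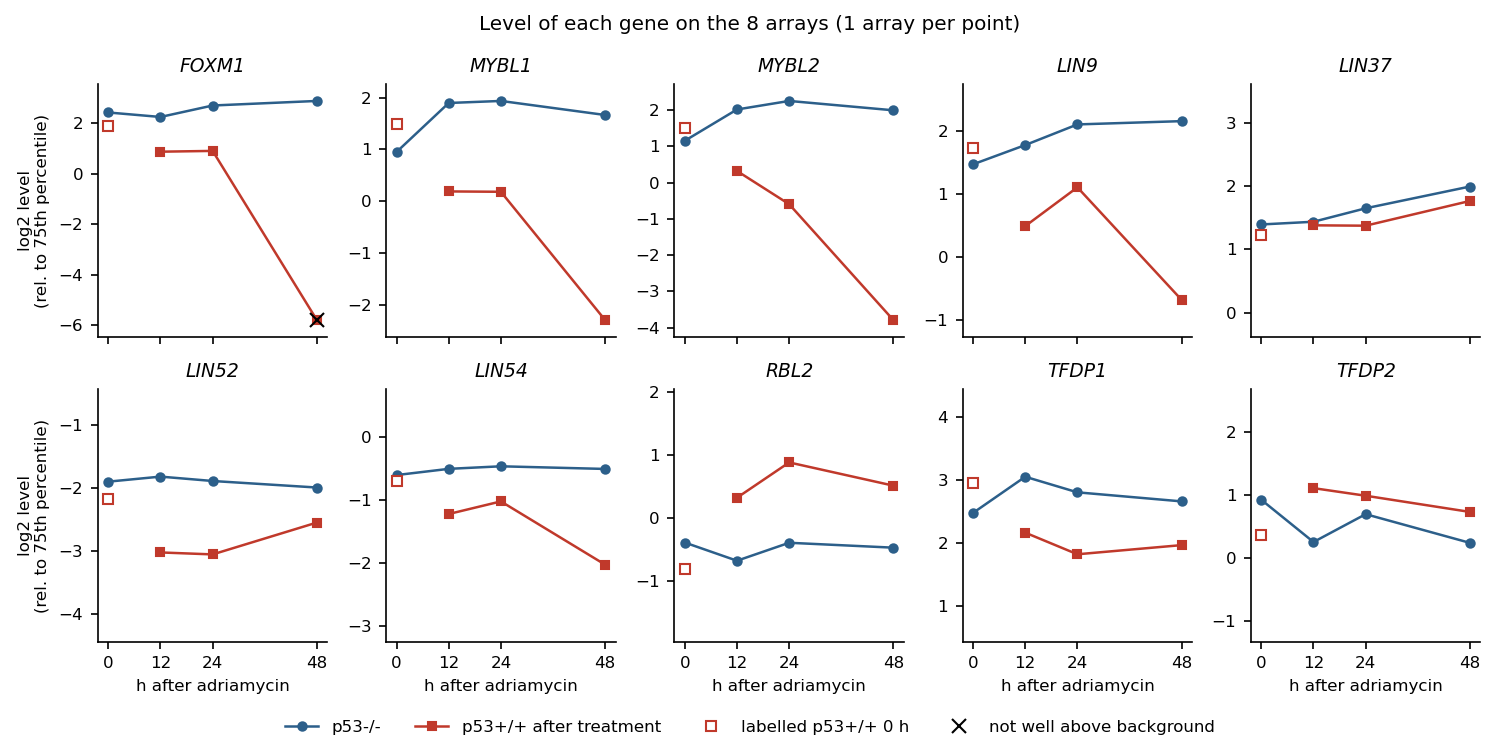
Log2 level relative to the 75th percentile of the array (y axis, scale set per gene) at 0, 12, 24 and 48 h (x axis) in p53-/- cells (blue circles) and p53+/+ cells (red squares); each point is 1 array. Open squares are the array labelled p53+/+ 0 h, which is not joined to the treated arrays, and the cross marks FOXM1 at 48 h, not well above background. The treated p53+/+ points lie below the treated p53-/- points for FOXM1, MYBL1, MYBL2, LIN9, LIN52, LIN54 and TFDP1 and above them for RBL2 and TFDP2.

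FOXM1, the activator of mitotic genes, was measured with a probe for NM_202002 in 2 spots. Without p53 its processed signal was 4759, 5352, 7480 and 8912 at 0, 12, 24 and 48 h, and 3839 on the array labelled p53+/+ 0 h, then 1505, 1534 and 11.8 in p53+/+ cells. On the log2 level scale this was 2.44, 2.26, 2.71 and 2.89 in p53-/- cells and 1.92, 0.88, 0.91 and -5.81 on the p53+/+ arrays. The p53-/- levels thus stayed within 0.64, whereas the 3 treated p53+/+ levels were all lower and the last was not well above background. The difference between treated genotypes was first -1.38 and then -1.80 at 12 and 24 h (technical SD of both 0.07), or 2.60- and 3.49-fold lower. At 48 h it was 184-fold lower with the dim array set to the lowest signal well above background on it. This is not a strict bound, because BUB1B was not well above background there at a higher level (-4.47 against -4.63). The technical SD comes from probes printed in 10 spots and covers spots of 1 array, not cultures or labelling. Over the 3 times limma gave -3.96 on the log2 scale (SE 1.75, adjusted p = 0.165), which missed the threshold, with the p53+/+ levels spread over 6.72. Without the p53+/+ 48 h array the estimate was -1.73 (adjusted p = 0.0134 from limma), and without both 48 h arrays -1.59 (adjusted p = 0.0335). Only 3 of 11 alternatives brought FOXM1 under the threshold, with the adjusted p from limma between 0.0134 and 0.302 over the 11.

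MYBL2 encodes B-MYB, the MYB protein that joins MuvB in S phase. Its level was 1.16, 2.02, 2.25 and 2.00 from 0 to 48 h in p53-/- cells. The array labelled p53+/+ 0 h read 1.51, and the p53+/+ arrays after ADR read 0.32, -0.59 and -3.80. The treated p53+/+ levels were lower at each later time, whereas the treated p53-/- levels stayed within 0.26. The difference was -1.70, -2.85 and -5.79 (technical SD 0.07 to 0.13), or 3.24-, 7.21- and 55.4-fold lower. The limma estimate was -3.45 (SE 0.98, adjusted p = 0.0561), just outside the threshold. It was -2.23 without the p53+/+ 48 h array (adjusted p = 0.01296 from limma), and 7 of 12 alternatives brought it under the threshold, with the adjusted p between 0.0103 and 0.247 over the 12.

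MYBL1 encodes A-MYB, a relative of B-MYB best known from male germ cells. Its level in p53-/- cells was 0.95, 1.89, 1.93 and 1.66, and on the p53+/+ arrays 1.498 at the labelled 0 h and 0.19, 0.18 and -2.29 after treatment. The p53+/+ levels at 12 and 24 h were alike, and the low value came at 48 h. The difference was -1.71, -1.75 and -3.96, or 3.26-, 3.37- and 15.5-fold lower. MYBL1 was lower in treated p53+/+ than in treated p53-/- cells on the limma test, at -2.47 (SE 0.66, adjusted p = 0.0473, and 0.00795 to 0.199 over 12 alternatives). Its second probe, for NM_001144755, lay far lower on all arrays, at -3.87 to -3.23 without p53 and -4.07, -4.28 and -6.12 in treated p53+/+ cells, the last not well above background. That probe gave -1.37 (adjusted p = 0.128 from limma).

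Among the MuvB genes, LIN9, LIN52 and LIN54 were lower in treated p53+/+ cells at each time, and LIN37 was not distinguishable between genotypes. LIN9, the scaffold of MuvB, read 1.47, 1.77, 2.10 and 2.15 in p53-/- cells and 1.72 at the labelled 0 h, then 0.49, 1.10 and -0.69, on the p53+/+ arrays. The p53-/- levels were higher at later times, and the p53+/+ level at 24 h lay above that at 12 h before the low value at 48 h. The difference was -1.29, -0.998 (1.997-fold) and -2.84 on the log2 scale, and limma gave -1.71 (SE 0.45, adjusted p = 0.0437; 0.0135 to 0.144 over 12 alternatives). The second LIN9 probe, for the same transcript, read -1.49, -1.25 and -0.91 on treated p53-/- arrays and -1.88, -1.73 and -2.50 on treated p53+/+ arrays. It had the same sign at 3 of 3 times but was smaller, at -0.82 (SE 0.27, adjusted p = 0.0870 from limma), and the mean of both probes also missed the threshold (adjusted p = 0.0534 from limma).

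LIN52, whose phosphorylation decides whether MuvB binds p130, was among the dimmest of the 10 genes. Its processed signal was 236, 317, 308 and 302 in p53-/- cells, and 224 at the labelled 0 h, then 101, 98.4 and 113 on the p53+/+ arrays. The log2 difference was -1.20, -1.16 and -0.56 (technical SD 0.15 to 0.19), so the largest gaps came at 12 and 24 h and not at 48 h, the opposite order to FOXM1 and the MYB-like genes. Limma gave -0.97 (SE 0.21, adjusted p = 0.0231; 0.00246 to 0.236 over 12 alternatives). LIN54, the DNA-binding subunit, read -0.60, -0.51, -0.47 and -0.51 in p53-/- cells, and -0.70 at the labelled 0 h, -1.22, -1.02 and -2.03 on the p53+/+ arrays. The groups did not overlap after ADR, but the estimate of -0.93 (SE 0.29, adjusted p = 0.0698 from limma) missed the threshold. LIN37, needed for repression by DREAM, read 1.40, 1.44, 1.65 and 2.00 in p53-/- cells and 1.24 at the labelled 0 h, 1.38, 1.38 and 1.77 on the p53+/+ arrays. Its treated values overlapped, and limma gave -0.19 (SE 0.23, adjusted p = 0.613). Without scaling LIN37 passed the threshold as lower (-0.79, adjusted p = 0.0364 from limma), where the median of all probes was -0.51.

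RBL2 encodes p130, the pocket protein of DREAM, and was the gene that was higher in treated p53+/+ cells past the test. Its processed signal was 669, 697, 866 and 862 in p53-/- cells, and 580 at the labelled 0 h, then 1018, 1498 and 940 on the p53+/+ arrays. The level was -0.39, -0.68, -0.40 and -0.48 in p53-/- cells and -0.81, 0.32, 0.88 and 0.51 on the p53+/+ arrays. Each treated p53+/+ value lay above all 5 others, with 24 h the highest. At the 3 times in turn the log2 difference was 0.999, 1.27 and 0.98 (technical SD of each 0.07), or 1.999-, 2.42- and 1.98-fold, so only the 24 h value passed 2-fold. RBL2 was higher in treated p53+/+ than in treated p53-/- cells on the limma test, at 1.09 (SE 0.21, adjusted p = 0.0186, and 0.00555 to 0.183 over 12 alternatives). Without scaling the estimate was 0.49 (adjusted p = 0.156 from limma).

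The DP genes gave estimates of opposite sign, of which that of TFDP1 passed the test. TFDP1, the main dimer partner of E2F proteins, read 2.48, 3.06, 2.81 and 2.66 in p53-/- cells and 2.95 at the labelled 0 h, 2.17, 1.83 and 1.97 after ADR on the p53+/+ arrays. The treated groups did not overlap, and the difference was -0.89, -0.98 and -0.69, under 2-fold at each time. TFDP1 was lower in treated p53+/+ than in treated p53-/- cells on the limma test, at -0.85 (SE 0.20, adjusted p = 0.0301, and 0.00586 to 0.255 over 12 alternatives). Its second probe gave -1.01 (adjusted p = 0.0263 from limma). TFDP2, which encodes the other DP protein, read 0.92, 0.25, 0.69 and 0.24 in p53-/- cells and 0.36 at the labelled 0 h, 1.11, 0.99 and 0.73 on the p53+/+ arrays. The treated groups were separated by only 0.04, and the estimate of 0.55 (SE 0.22, adjusted p = 0.129 from limma) missed the threshold and was -0.05 without scaling.

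**Figure D3:**
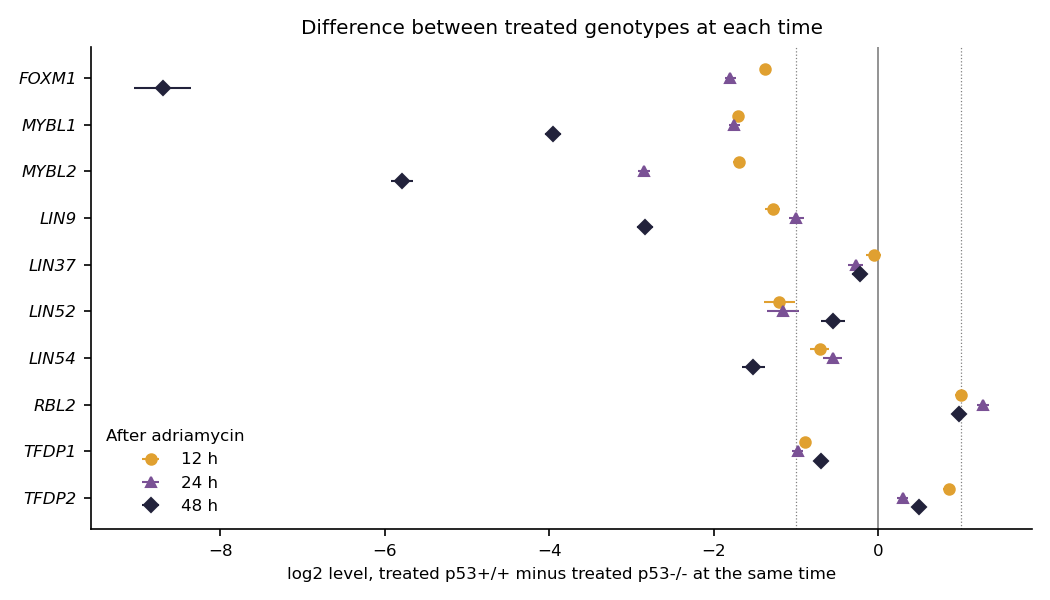
Log2 level of treated p53+/+ minus treated p53-/- cells (x axis) for each gene (y axis) at 12 h (circles), 24 h (triangles) and 48 h (diamonds). Bars are the technical SD between spots and are hidden by the symbol where small, and dotted lines mark 2-fold. FOXM1, MYBL1, MYBL2, LIN9 and LIN54 lie farthest to the left at 48 h, whereas LIN52 lies nearest to 0 at that time; the FOXM1 value of -8.70 at 48 h rests on a p53+/+ signal not well above background.

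The step from 24 to 48 h in p53+/+ cells set the genes apart. It was -6.72 for FOXM1 (to a value not well above background), -3.20 for MYBL2, -2.48 for MYBL1, -1.79 for LIN9 and -1.0045 for LIN54 on the log2 scale. The other 5 genes moved by -0.37 to 0.51, with LIN52 at 0.51. Of all probes, 5.96% were at least 2-fold lower and 8.73% at least 2-fold higher at 48 than at 24 h in p53+/+ cells. In p53-/- cells the same step lay between -0.46 and 0.35 for all 10 genes. These steps rest on the p53+/+ 48 h array, whose spike-ins were not well above background; the part of this in the step was not tested.

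Changes were also measured from 0 h, which in p53+/+ cells rests on the doubted array. There 4, 4 and 5 of 10 were at least 2-fold lower at 12, 24 and 48 h (9.98%, 13.8% and 11.6% of all probes), and RBL2 was at least 2-fold higher at each time (12.2%, 14.0% and 17.4%), by 1.12, 1.68 and 1.32 on the log2 scale. With the p53-/- 0 h array as baseline, 2, 3 and 5 were lower (9.98%, 13.2% and 11.1% of all probes), and RBL2 passed 2-fold at 24 h alone (0.71, 1.27 and 0.90; 12.8%, 13.8% and 17.1% of all probes were at least 2-fold higher). In p53-/- cells 0 of 10 were at least 2-fold lower at any time (5.70%, 5.24% and 7.59%), and 1 was higher, MYBL2 at 24 h (1.10; 4.21%, 8.58% and 12.7% of all probes were higher at the 3 times), while MYBL1 lay just under 2-fold at 12 and 24 h (0.94 and 0.98). At 0 h the arrays differed by less than 2-fold for each of the 10 genes, between -0.56 (TFDP2) and 0.55 (MYBL1), against 10.1% of all probes past 2-fold. The interaction of genotype and treatment over all 8 arrays was called for 0 of 10 genes by limma and for 1.69% of all probes; at an unadjusted p under 0.05 it held for 3 of 10 and 17.1% of all probes. Those 3 were RBL2 (1.499, SE 0.43, adjusted p = 0.145), TFDP1 (-1.32, SE 0.40, adjusted p = 0.159) and TFDP2 (1.11, SE 0.43, adjusted p = 0.260). On simulated arrays with 28947 probes the interaction fit called 0% of the probes shifted by 3 and 16% of those shifted by 4 (log2). The fit of treated arrays called 10%, 44%, 84% and 86% of those shifted by 1, 2, 3 and 4. In each simulation 50 probes were shifted by each amount and 28747 were left unchanged. On the real treated arrays 18.0% of all probes were called, so these shares do not give the power of the fits there.

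The genes that these factors are known to act on were described as lists. Of 27 late cell cycle genes bound by B-MYB, MuvB and FOXM1, 10 were called lower (7.40% of all probes) and 0 higher (10.6%) by limma, and 25 were at least 2-fold lower at all 3 times (4.58% of all probes). Their median difference was -3.54, against 0.09 over all probes and -0.95 over the 10 genes above. The 4 with the largest differences were BIRC5 (survivin) at -4.77 (adjusted p = 0.145), UBE2C (of the mitotic ubiquitin pathway) at -4.73 (adjusted p = 0.103), CENPA (the centromeric histone) at -4.73 (adjusted p = 0.0243) and TOP2A (a topoisomerase that ADR poisons) at -4.46 (adjusted p = 0.125 from limma). At 48 h in p53+/+ cells 13 of the 27 were not well above background, all 4 of these among them, so their values and order rest on readings at background there. Without the p53+/+ 48 h array 23 of 27 were called lower (6.94% of all probes), with a median of -2.06, and with the time point as a block 3 of 27 (PLK1, CENPA and CKS2; 6.50% of all probes). In p53-/- cells 12, 7 and 2 of the 27 were at least 2-fold lower at 12, 24 and 48 h than at 0 h (5.70%, 5.24% and 7.59% of all probes), whereas FOXM1 differed there by -0.18, 0.28 and 0.46.

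Of 21 early cell cycle genes of E2F and DREAM, which serve DNA replication, 12 were called lower (7.40% of all probes) and 0 higher (10.6%), 17 were at least 2-fold lower at all 3 times (4.58%), and the median was -2.74. The largest differences were in CCNE2 (cyclin E2) at -4.80 (adjusted p = 0.0238), GINS2 at -4.22 (adjusted p = 0.123), CDT1 (a licensing factor) at -3.99 (adjusted p = 0.144) and ORC1 (of the origin recognition complex) at -3.30 (adjusted p = 0.0491 from limma). All 4 were not well above background on the p53+/+ 48 h array, so these values and their order rest on readings at background there. Without that array 16 of 21 were called lower (6.94% of all probes), and with the time block 13 (6.50%). In p53-/- cells 7, 8 and 4 of the 21 were at least 2-fold higher at 12, 24 and 48 h than at 0 h (4.21%, 8.58% and 12.7% of all probes) and 0 were lower, the opposite side to the late genes in the same cells. MYBL1 (0.94, 0.98 and 0.71) and MYBL2 (0.86, 1.10 and 0.84) lay on the side of the early genes.

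**Figure D4:**
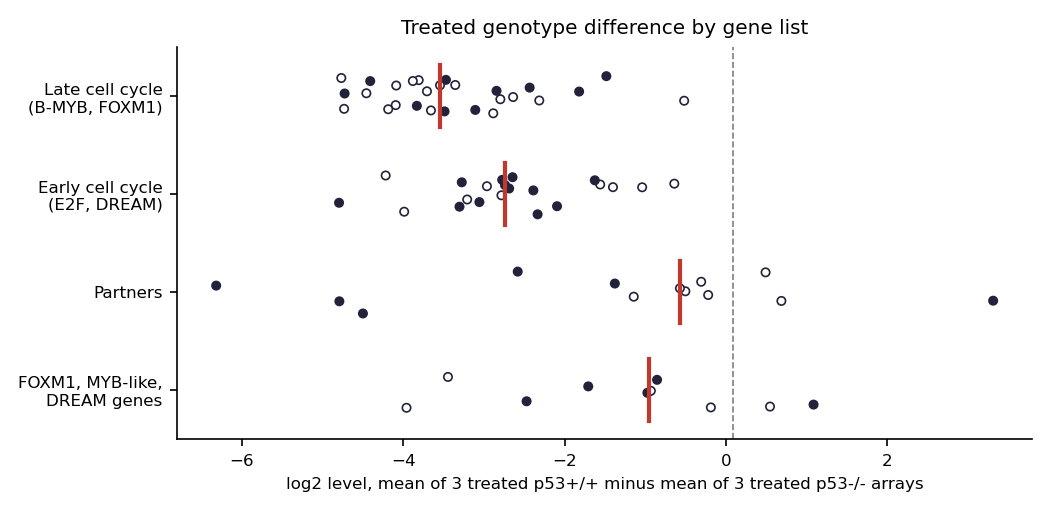
Log2 level of 3 treated p53+/+ arrays minus 3 treated p53-/- arrays (x axis) for each gene of 4 lists (y axis; points are spread vertically to separate them). Filled points passed the limma threshold, open points did not, red bars are list medians and the dashed line is the median of all probes (0.09). The late list lies farthest to the left, with a median of -3.54, and the partners spread from -6.32 to 3.31.

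Of the 13 partners of these factors, 5 were called lower (7.40% of all probes) and 1 higher (10.6%). The activating E2F genes and MYB were called lower, namely E2F2 at -6.32 (adjusted p = 0.0199), E2F1 at -4.79 (adjusted p = 0.0499), MYB at -2.58 (adjusted p = 0.00567) and E2F3 at -1.38 (adjusted p = 0.00521 from limma). E2F8, an atypical E2F that represses, was called lower at -4.50 (adjusted p = 0.0163), whereas its relative E2F7 read 0.69 (adjusted p = 0.131 from limma). CDKN1A was called higher at 3.31 (adjusted p = 0.00045 from limma). E2F4, the E2F of DREAM, read -0.50 (adjusted p = 0.130), E2F5 -0.22 (adjusted p = 0.512) and DYRK1A, the kinase that promotes DREAM assembly, -0.31 (adjusted p = 0.322 from limma). Of the other pocket protein genes, RBL1 (p107) read -1.14 (adjusted p = 0.143) and RB1 0.49 (adjusted p = 0.104 from limma). RBBP4, the remaining MuvB subunit, read -0.57 (adjusted p = 0.126), but its other 3 probes passed at -0.86 to -0.96 (adjusted p = 0.0138 to 0.0301 from limma). MYB, the founding MYB gene, read -1.73, 0.19, -0.20 and -0.63 in p53-/- cells, and -0.17 at the labelled 0 h, -2.16, -2.97 and -3.26 on the p53+/+ arrays, and it was the 1 partner whose interaction passed (-4.14, adjusted p = 0.0475 from limma), a value that rests on the array labelled p53+/+ 0 h. E2F1, E2F2 and E2F8 were not well above background on the p53+/+ 48 h array. Without it the same 5 partners were called lower (6.94% of all probes) and CDKN1A higher (8.18%).

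The patterns over the 8 arrays, which share genotype and slide effects, are given as descriptions. Among 13761 genes, those most like FOXM1 by Pearson r of the log2 level were SGO1 (0.9992), CDK1 (0.9989), CKAP2L, BIRC5 and SHCBP1 (0.9968); the single low value at 48 h weighs heavily in these. Those most like MYBL1 were CENPQ, WDHD1, PSMC3IP, EXO1 and TEDC2 (0.9979 to 0.9954). Those most like RBL2 were PLXNB1, HOXA5, WHRN, KIAA1217 and KBTBD6 (0.9932 to 0.9871). Between the 10 genes themselves r was 0.99 for MYBL1 with MYBL2, 0.96 for FOXM1 with MYBL2 and with LIN54, -0.97 for RBL2 with TFDP1, and -0.21 for FOXM1 with LIN37. FOXM1, MYBL1, MYBL2 and LIN54 each had their lowest level on the p53+/+ 48 h array, so that array weighs in their r as well.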

How the data were processed

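RNA of MCF10A p53+/+ and p53-/- cells was hybridised to 8 Agilent SurePrint G3 Human GE arrays in 1 colour, 1 array for each genotype and time. The authors deposited the output of Agilent Feature Extraction 10.7.3.1, whose header names build hg19, and used here is its processed signal, a background-corrected intensity on a linear scale. The series table held the same values (503808 of 503808 equal, relative tolerance 1e-05). The methods name no normalization between these arrays.

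Of 58717 non-control spots per array, 233 to 370 were left out for outlier or uniformity flags, 0 were saturated, and 42391 of 42405 probes remained. From the deposited intensity, the log2 signal of each spot was set relative to the 75th percentile of its array, and a probe took the mean of its spots. RefSeq accessions (table of GRCh38.p14; coordinates are given, in that build, for promoter windows only) named 27227 probes (64.2%). The 28947 probes that passed the scanner's background criterion on 1 or more arrays entered limma 3.58.1 (lmFit and eBayes; 4 residual degrees of freedom; Benjamini-Hochberg adjusted p under 0.05) in R 4.3.3, on genotype over the 6 treated arrays, and on genotype, treatment and their interaction over 8. Its p-values measure differences against movement over time. A size rule of 2-fold, with no test, was used for single times. The technical SD came from 999 probes in 10 spots. The number of arrays limits the precision. Both fits were tested on simulated data. Python 3.11.15, numpy 2.4.6, pandas 2.3.3 and matplotlib 3.10.9 were used.

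Some genes of the fixed lists are not reported here. The 10 genes and the lists were chosen with earlier results of these data known. All 10 genes and all 13 partners were to be named, with the 4 largest differences of the late and early lists and the 5 genes most like FOXM1, RBL2 and MYBL1 among genes well above background on at least 4 arrays. Alternatives were quantile, median or no scaling, normexp (offset 50), the mean of all probes, other filters on dim probes, a 3-fold rule, a time block, each time left out, another baseline and, added after the values were seen, the fits without the p53+/+ 48 h array.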

Additional observations from a re-analysis of the deposited data

Results flagged for a closer look

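In 7 of the 10 genes, every treated p53+/+ array moved one way from the array labelled p53+/+ 0 h and every treated p53-/- array moved the other way from its own 0 h array. A change of any size counted. The share of all probes that moved in this way is not given here, so whether 7 of 10 is many cannot be judged. The mean change in p53+/+ minus that in p53-/- cells was -3.02 for MYBL1, -3.80 for MYBL2, -1.96 for LIN9, -0.83 for LIN54, 1.499 for RBL2, -1.32 for TFDP1 and 1.11 for TFDP2 on the log2 scale. The limma interaction tested this difference and gave adjusted p of 0.314, 0.384, 0.328, 0.512, 0.145, 0.159 and 0.260 in that order, so none of the 7 passed. For RBL2 the p53-/- changes were small, at -0.29, -0.0035 and -0.08. All 7 values rest on the array labelled p53+/+ 0 h, on which MDM2 read at the p53-/- level. When both genotypes were measured from the p53-/- 0 h array, they equalled the treated genotype differences, and MYBL1, LIN9, RBL2 and TFDP1 then passed. TFDP2 moved by 0.19, 0.06 and -0.19 in p53+/+ cells from that array, so its opposite movement was not seen there.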

How the results depend on the processing

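With the p53+/+ 48 h array left out, each of the 10 estimates kept its sign. TFDP2 reversed without scaling (-0.0522), and the LIN37 interaction lay between -0.0912 and 0.0185 with 1 time left out, the last value a reversal; the cause was not tested. The count of genes lower in treated p53+/+ cells was 4 (7.40% of all probes), but 7 without scaling (27.7%) and 2 with the time point as a block (6.50%). It was 2 with the mean of all probes (17.5% called in either direction) and 0 to 4 with 1 time left out (1.01% to 9.22% in either direction). The count of higher genes was 1 (10.6%), but 0 without scaling (4.72%) and 0 with any 1 time left out. Over all probes 5201 were called, but 9393 without scaling, 9894 with normexp, 12536 with no filter on dim probes and 292 to 2670 with 1 time left out. The share of calls that were higher was 58.8%, but 48.3% with quantile, 45.7% with median and 14.5% with no scaling, 73.3% with normexp and 78.4% with no filter. The time block, which pairs the arrays of a time point and leaves 2 residual degrees of freedom, gave 4451 calls and kept MYBL1, TFDP1 and RBL2 among them. The interaction called 488 probes, but 1296 without scaling, 1251 with normexp, 60 with the time block and 0 to 42 with 1 time left out. It called 0 of the 10 genes, but 1 lower without scaling; with the p53-/- 0 h baseline, where it equals the treated difference by construction, it called 5201 probes, 4 of the genes lower and 1 higher.

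Counts by the 2-fold rule moved as follows. Shares of all probes under other scalings, the mean of all probes or the 3-fold rule are not given here. Treated p53+/+ against p53-/-: 5 lower at 12 h became 2 at 3-fold, 4 lower at 24 h became 7 without scaling, 1 higher at 24 h became 0 without scaling or at 3-fold, and 5 lower at 48 h became 8 without scaling. In p53+/+ cells from 0 h, 4 lower at 12 h became 2 with the mean of all probes or the p53-/- baseline and 0 at 3-fold. The 1 higher at 12 h became 0 with median or no scaling, at 3-fold or with that baseline, 4 lower at 24 h became 1 at 3-fold, and 1 higher at 48 h became 0 without scaling, at 3-fold or with that baseline. In p53-/- cells, 0 higher at 12 h became 1 with median and 2 with no scaling, 1 higher at 24 h became 2 with quantile and 3 with no scaling and 0 at 3-fold, and 0 higher at 48 h became 4 without scaling. With a signal near background, the fold of FOXM1 at 48 h depends on the level set for the dim array.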
